A study of Mus musculus with 6 samples.

Results

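The genes described here are 10 transcripts of neutrophils and inflammatory granulocytes, S100a8, S100a9, Csf3r, Il1b, Il1r2, Trem1, Clec4d, Clec4e, Hdc and Acod1, taken by symbol from a table of 19288 genes. All 10 were in the table and all 10 passed the filter on low counts. They were measured in 6 RNA sequencing libraries of subcutaneous tumours of LLC1 cells, a Lewis lung carcinoma line. The hosts came from CB57BL/6 females crossed with FVB males carrying a beta-hCG transgene, which encodes a subunit of the pregnancy hormone human chorionic gonadotropin. There were 3 groups of 2 libraries. Progesterone tumours grew in hosts without ovaries that received progesterone, vehicle tumours in hosts without ovaries that received the vehicle, and transgenic tumours in hosts for which the labels name neither surgery nor supplementation. Supplementation ran for 28 days, and the tumours were collected on day 30 of growth. Every host carried the transgene, so no group without it was measured. The labels give no promoter for it, no age of the mice and no number of animals behind a library. The RNA came from whole tumours, with host and cancer cells together. The 3 comparisons share libraries, and in vehicle against transgenic tumours the surgery and the vehicle cannot be told apart.

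Neutrophils are short-lived phagocytes that leave the bone marrow under the growth factor G-CSF, follow CXC chemokines into inflamed tissue, and make up part of the myeloid infiltrate of tumours. S100a8 and S100a9 encode the subunits of calprotectin, the most abundant protein complex of the neutrophil cytosol, and Csf3r encodes the G-CSF receptor. The other genes serve inflammation: the cytokine interleukin-1 beta (Il1b) and its decoy receptor (Il1r2), the activating receptor Trem1, the C-type lectins Clec4d (MCL) and Clec4e (Mincle), histidine decarboxylase (Hdc), which makes histamine, and Acod1, which makes itaconate. Several of them, Il1b, Clec4d, Clec4e and Acod1 above all, are also made by macrophages and monocytes, and Hdc by mast cells and basophils.

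The promoters of the calprotectin pair, of Il1b and of Acod1 are shown because the first 3 of these genes had similar profiles over the libraries and Acod1 had another. Each is the 250 bases before the RefSeq start on the gene's own strand (GRCm38.p6), in lower case with matches to a motif in capitals. In GENCODE M21, S100a8 starts at 3:90668978 and Acod1 at 14:103046977, so both windows reach into the genes as annotated there. The match nearest the start of S100a8 lies in that part.
S100a8, chr3:90668821-90669070, plus strand: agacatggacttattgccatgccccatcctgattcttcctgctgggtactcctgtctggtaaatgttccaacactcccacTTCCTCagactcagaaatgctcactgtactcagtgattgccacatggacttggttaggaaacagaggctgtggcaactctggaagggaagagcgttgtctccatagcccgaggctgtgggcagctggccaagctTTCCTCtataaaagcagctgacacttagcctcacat
S100a9, chr3:90695722-90695971, minus strand: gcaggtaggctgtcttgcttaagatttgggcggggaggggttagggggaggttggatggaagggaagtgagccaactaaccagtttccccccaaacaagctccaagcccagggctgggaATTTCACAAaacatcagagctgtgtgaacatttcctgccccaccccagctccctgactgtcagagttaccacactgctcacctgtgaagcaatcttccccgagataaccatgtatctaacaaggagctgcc
Il1b, chr2:129371140-129371389, minus strand: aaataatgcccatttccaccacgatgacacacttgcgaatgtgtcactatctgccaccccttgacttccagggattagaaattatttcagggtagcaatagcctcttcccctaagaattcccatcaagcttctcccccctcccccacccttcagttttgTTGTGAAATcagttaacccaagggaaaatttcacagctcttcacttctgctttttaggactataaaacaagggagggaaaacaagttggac
Acod1, chr14:103046762-103047011, plus strand: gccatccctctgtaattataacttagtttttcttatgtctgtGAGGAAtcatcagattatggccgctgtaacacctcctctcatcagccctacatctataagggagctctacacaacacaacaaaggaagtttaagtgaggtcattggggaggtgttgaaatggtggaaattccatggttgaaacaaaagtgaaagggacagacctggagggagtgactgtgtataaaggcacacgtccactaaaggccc
In S100a9 and Il1b the capitals mark a C/EBP match (TTNNGNAAT), a motif of myeloid transcription factors. The 9 bases were the same in both, TTGTGAAAT read on the motif's strand, ending 123 bases before the start of S100a9, on the strand opposite to the gene, and 83 bases before that of Il1b, on the gene's strand. In S100a8, on the strand opposite to the gene, and in Acod1 they mark PU.1 matches (GAGGAA), ending 165 and 31 bases before the start in S100a8 and 203 bases before it in Acod1. Over both strands of the 10 promoters, 6 held the PU.1 letters, against 23.3% of 32851 RefSeq promoters of the same length. A C/EBP match was in 3, S100a9, Il1b and Clec4d, against 10.2% of promoters. Clec4d had another profile over the libraries, and the other members, S100a8 among them, held no C/EBP match. An NF-kB match was in 1, against 7.25%, and an AP-1 match (TGANTCA) in 0, against 6.75%. None of these matches overlapped another. They describe letters in a window, not bound sites.

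S100a8 (3:90668978 to 90670035) and S100a9 (3:90692632 to 90695721) lie 22596 bases apart on opposite strands. Clec4d (6:123262111 to 123275265) and Clec4e (6:123281789 to 123289870) are also neighbours on opposite strands, 6523 bases apart. All 10 are protein-coding in GENCODE M21, and the only exonic overlap with another gene was 25 bases of Il1b with the antisense gene Il1bos, which has no count here.

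Library totals ran from 19526775 to 30083925 counts. The 2 transgenic libraries were the least alike of any group, with a Spearman correlation of 0.969 over genes, against 0.974 between the progesterone and 0.986 between the vehicle libraries. Transgenic library 2 had the most extreme score on the first principal component (-54.5, 31.5% of the variance), and progesterone library 2 on the second (62.9, 27.4%). Over all 13632 genes past the filter, edgeR's quasi-likelihood test called 0 genes in each of the 3 comparisons (adjusted p under 0.05), and limma-voom called 0. DESeq2 called 72 genes between progesterone and vehicle tumours, 46 between progesterone and transgenic and 63 between vehicle and transgenic, none of them among the 10.

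The libraries of a group were not equally alike for these genes. The vehicle libraries were within 1.2 times of each other for all 10 genes, while the transgenic libraries differed at least 2-fold for 7 of the 10. For these 7, S100a8, S100a9, Csf3r, Il1b, Il1r2, Clec4e and Hdc, transgenic library 2 was the lowest of the 6 libraries, and transgenic library 1 was the higher of the pair. Transgenic library 1 was the highest of the 6 for 6 of the 10, against 14.2% of all genes. Of all genes past the filter, 22.1% were lowest in transgenic library 2 and 8.35% were at least 2 times higher in library 1 than in library 2. The median ratio of library 1 to library 2 was 2.38 over the 10 genes, against 0.988 over all genes. For each of these 7 genes the transgenic libraries differed from each other by a larger factor than any 2 group means. In such bulk samples, fewer neutrophils and less RNA per neutrophil cannot be told apart.

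**Figure D1:**
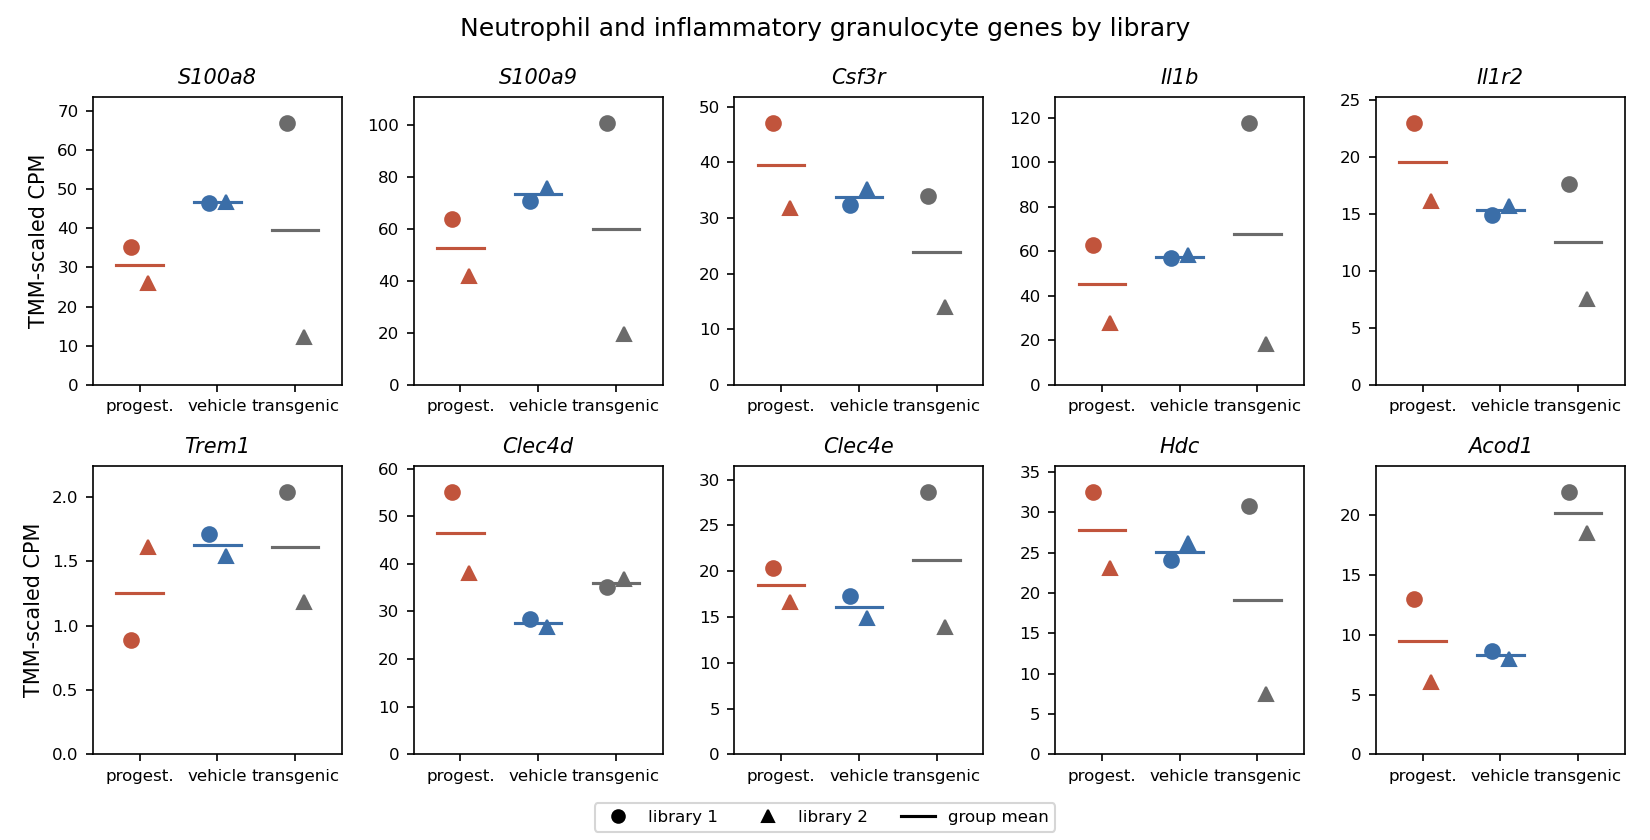
Level of each of the 10 genes in TMM-scaled CPM (linear axes from 0) in the 2 progesterone, 2 vehicle and 2 transgenic libraries, with circles for library 1, triangles for library 2 and a line at the group mean. The vehicle pairs nearly coincide, whereas the transgenic pairs of S100a8, S100a9, Il1b and Hdc are more than 4-fold apart.

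Per length, calprotectin was the most abundant of the 10. The median over the 6 libraries was 129 RPKM for S100a9, 59.0 for S100a8, 30.2 for Il1b and 22.5 for Clec4d. Csf3r, Il1r2, Acod1, Hdc and Clec4e had medians between 3.42 and 9.19 RPKM, and Trem1, at 0.526 RPKM, was the least abundant. Trem1 rests on 23 to 55 reads per library.

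S100a8 had 35.3 and 26.0 CPM under progesterone, 46.5 and 46.8 under vehicle, and 67.0 and 12.2 in transgenic tumours. Both progesterone values were below both vehicle values, and all 4 libraries of ovariectomized hosts fell between the transgenic ones. The log2 fold change was -0.61 ± 0.65 (SE) for progesterone against vehicle, with a 95% interval of -2.14 to 0.92 and an adjusted p = 0.999 by edgeR. S100a9 had 63.8 and 41.9 CPM under progesterone, 70.8 and 75.9 under vehicle, and 101 and 19.5 in transgenic tumours, the same order of libraries at both ends as S100a8. Its log2 fold change was -0.47 ± 0.64 for progesterone against vehicle and 0.28 ± 0.63 for vehicle against transgenic (adjusted p = 0.999 and 0.989). Neither calprotectin gene passed the test in any comparison, with the spread pooled over the 3 groups.

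The 2 calprotectin transcripts kept a near-constant proportion to each other. The ratio of S100a9 to S100a8 reads was 1.81 and 1.61 under progesterone, 1.52 and 1.62 under vehicle, and 1.51 and 1.59 in transgenic tumours, a 1.2-fold range, over levels of S100a8 that spanned 5.48-fold. The ratio of the decoy receptor Il1r2 to Csf3r was as narrow, from 0.448 to 0.539. Other ratios were not: Clec4d to S100a8 ran from 0.525 to 3.02 and Acod1 to S100a8 from 0.170 to 1.51, each highest in transgenic library 2. Clec4d to S100a8 was also higher under progesterone, at 1.56 and 1.46, than under vehicle, at 0.612 and 0.572.

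**Figure D2:**
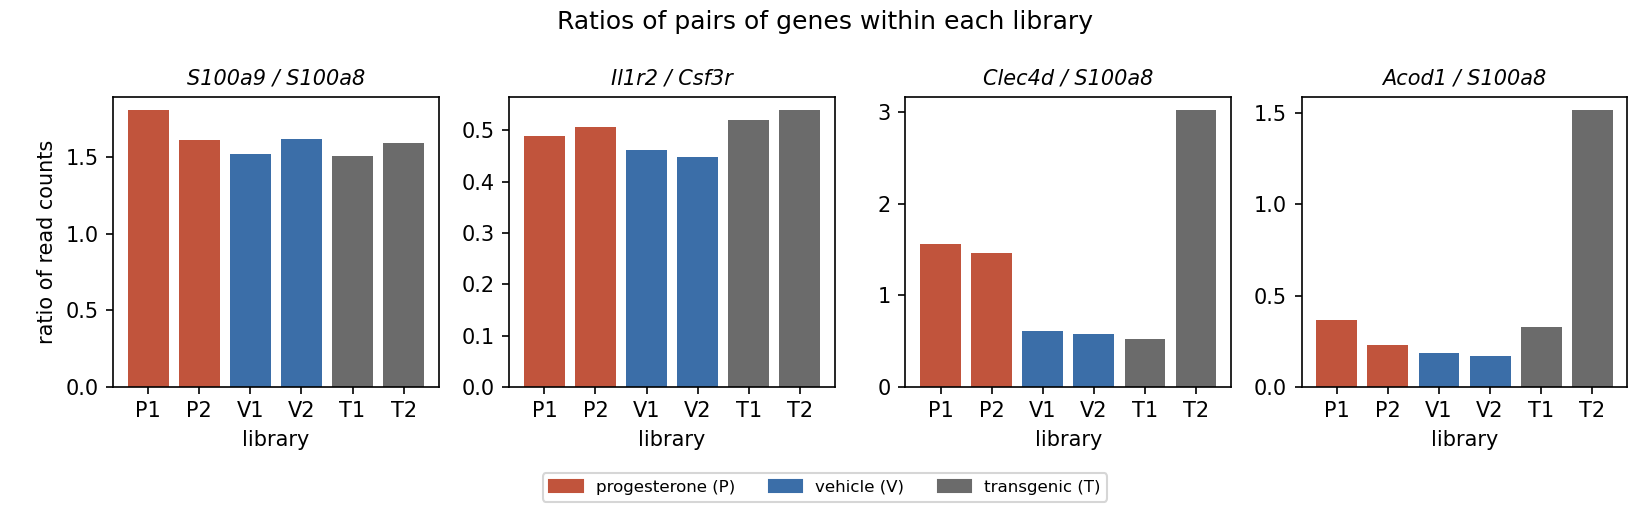
Ratio of the read counts of 2 genes within each library (linear axes from 0), for progesterone (P1, P2), vehicle (V1, V2) and transgenic (T1, T2) tumours. S100a9 to S100a8 and Il1r2 to Csf3r stay within a 1.2-fold range, while Clec4d to S100a8 and Acod1 to S100a8 peak at 3.02 and 1.51 in transgenic library 2.

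Csf3r had 47.1 and 31.9 CPM under progesterone, 32.4 and 35.1 under vehicle, and 33.9 and 14.0 in transgenic tumours. All pairs of groups overlapped. Its mean was 39.5 ± 10.8 CPM in progesterone, 33.8 ± 1.93 in vehicle and 24.0 ± 14.1 in transgenic tumours (SD, n = 2 each), and the log2 fold change of progesterone against transgenic was 0.72 ± 0.41 (adjusted p = 0.916 by edgeR). Over the 6 libraries the log2 CPM of Csf3r followed that of Il1r2 (Pearson r = 0.988) and Hdc (0.974) more closely than that of S100a8 (0.770), as a description, since the genes share libraries and depth.

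Il1b was the most variable of the 10, with 62.7 and 27.9 CPM under progesterone, 56.9 and 58.2 under vehicle, and 118 and 18.2 in transgenic tumours. The transgenic libraries thus held both the highest and the lowest value of the series, 6.49-fold apart. The log2 fold changes were -0.34 ± 0.75 for progesterone against vehicle, -0.59 ± 0.75 for progesterone against transgenic and -0.24 ± 0.75 for vehicle against transgenic, and each interval spanned at least a 2-fold change either way. Il1r2, which binds interleukin-1 without signalling, had 23.0 and 16.1 CPM under progesterone, 15.0 and 15.7 under vehicle, and 17.6 and 7.54 in transgenic tumours. Both progesterone values were above both vehicle values, with a log2 fold change of 0.35 ± 0.41 (adjusted p = 0.999 by edgeR). Il1b to Il1r2, the cytokine to its decoy, was 2.72 and 1.73 under progesterone, 3.80 and 3.70 under vehicle, and 6.68 and 2.41 in transgenic tumours.

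Clec4d had a profile of its own among the 10, with 55.0 and 38.0 CPM under progesterone, 28.5 and 26.8 under vehicle, and 35.2 and 36.9 in transgenic tumours, so that no 2 groups overlapped and the order was progesterone, transgenic, vehicle. For progesterone against vehicle the log2 fold change was 0.75 ± 0.22, with an interval of 0.23 to 1.28, an unadjusted p = 0.0117 and an adjusted p = 0.932 by edgeR. For progesterone against transgenic it was 0.37 ± 0.22 and for vehicle against transgenic -0.38 ± 0.22 (adjusted p = 0.933 and 0.899). Its neighbour Clec4e, which forms a receptor complex with it, had 20.3 and 16.7 CPM under progesterone, 17.3 and 14.9 under vehicle, and 28.6 and 13.9 in transgenic tumours. All 3 groups of Clec4e overlapped, and r between the 2 lectins was 0.287 over the 6 libraries.

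Acod1 was highest in both transgenic libraries. It had 12.98 and 6.04 CPM under progesterone and 8.61 and 7.95 under vehicle, against 21.9 and 18.5 in transgenic tumours, and all 4 values of ovariectomized hosts were below both transgenic values. The log2 fold change was -1.29 ± 0.39 for vehicle against transgenic (interval -2.20 to -0.37, unadjusted p = 0.0126, adjusted p = 0.811 by edgeR). For progesterone against transgenic it was -1.09 ± 0.39 (interval -1.997 to -0.18, unadjusted p = 0.0255, adjusted p = 0.914). These 2 comparisons share the transgenic libraries. Progesterone against vehicle gave 0.20 ± 0.38, with the groups overlapping. Acod1 and Clec4d were the members least like the others (r of -0.010 and -0.0059 with the mean profile of the other 9), beside Trem1 at 0.17, while the other 7 had r between 0.78 and 0.94.

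Hdc had 32.5 and 23.1 CPM under progesterone, 24.1 and 26.2 under vehicle, and 30.8 and 7.50 in transgenic tumours. All groups overlapped, and its log2 fold changes lay between 0.15 ± 0.57 and 0.54 ± 0.57. Markers of mast cells and basophils, the other makers of histamine, had another profile. Their summed level was 124 and 237 CPM under progesterone, 79.9 and 80.2 under vehicle, and 65.4 and 84.3 in transgenic tumours. Most of the vehicle and transgenic sums came from Gata2, at 41.9 to 51.4 CPM over all libraries, and Kit, at 8.61 to 17.4. Of the 9 markers, 0 were lowest in transgenic library 2. By direction 6 of the 9 were higher and 3 lower in progesterone than in vehicle tumours, 6 and 3 in progesterone than in transgenic, and 8 and 1 in vehicle than in transgenic, and 0 passed the test. Tpsb2, a mast cell tryptase, had a log2 fold change of 2.56 ± 0.41 for progesterone against vehicle (adjusted p = 0.705 by edgeR), beside 0.15 for Hdc. Mcpt8, a basophil protease, had 0.039 and 0.289 CPM under progesterone, 4.01 and 2.23 under vehicle, and 0.592 and 3.41 in transgenic tumours, so that both progesterone values were the lowest, the first of them under the floor of 3 counts. Kit and Gata2, the other 2 lower genes, had log2 fold changes of -0.37 and -0.083 for progesterone against vehicle. Slc18a2, the transporter that loads histamine into granules, had 1.16 and 2.36 CPM under progesterone, 0.480 and 0.159 under vehicle, and 0.148 and 0.421 in transgenic tumours. The second of its vehicle values was at the floor of 3 counts, and the first of its transgenic values was near it. Trem1, whose receptor amplifies inflammatory signals, had 0.888 and 1.61 CPM under progesterone, 1.71 and 1.54 under vehicle, and 2.04 and 1.18 in transgenic tumours, with all groups overlapping.

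As a set, 0 of the 10 genes passed the edgeR test in any comparison, and 0 by limma-voom or DESeq2. Between progesterone and vehicle tumours, 6 had a log2 fold change above 0 (51.1% of all genes) and 4 below, with a median of 0.17 (0.0065 over all genes). Between progesterone and transgenic tumours 4 were above (51.0% of all genes) and 6 below, with a median of -0.19 (0.0061 over all genes). Between vehicle and transgenic tumours 6 were above (48.5% of all genes) and 4 below, with a median of 0.13 (-0.011 over all genes). The share of all genes that passed was 0.0% in each comparison. At an unadjusted p under 0.05 there was 1 of 10 in each, Clec4d in the first and Acod1 in the other 2, where 5.29%, 5.27% and 5.57% of all genes reached it. Groups did not overlap for 2 higher (Il1r2 and Clec4d) and 2 lower genes (S100a8 and S100a9) of progesterone against vehicle, where 18.4% and 17.8% of all genes did so. Of progesterone against transgenic this held for 1 higher (Clec4d) and 1 lower gene (Acod1), with 14.5% of all genes in each direction. Of vehicle against transgenic it held for 0 higher and 2 lower genes (Clec4d and Acod1), with 17.9% and 17.7% of all genes. The counts of members are near these shares of all genes.

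The set medians turned on the transgenic pair. Without transgenic library 1 the median was 1.15 for vehicle and 1.32 for progesterone against transgenic, and without transgenic library 2 it was -0.40 and -0.67.

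**Figure D3:**
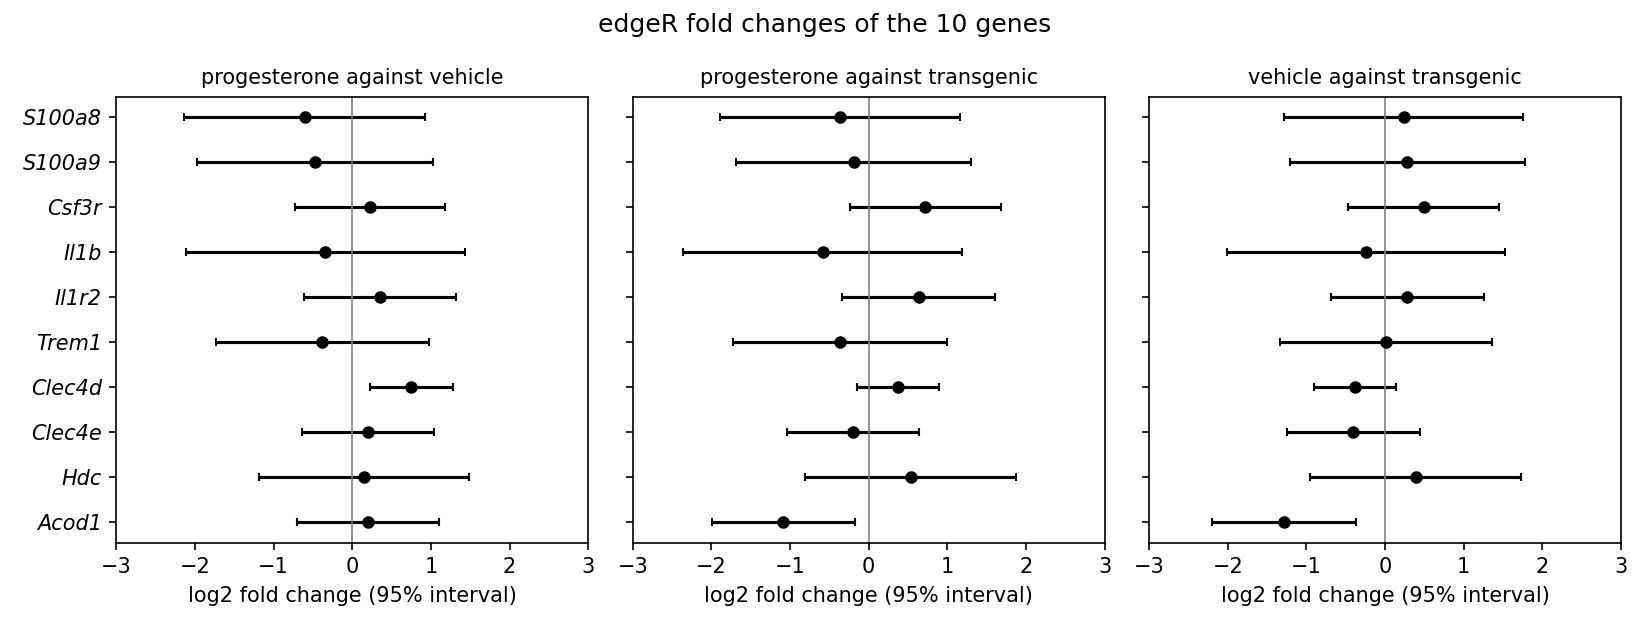
Log2 fold changes of the 10 genes in the 3 comparisons from edgeR (x axis, log2 scale, 95% intervals as bars); values right of 0 are higher in the group named first. Of the 30 intervals, the 3 that leave out 0 are Clec4d for progesterone against vehicle and Acod1 for both comparisons with transgenic tumours, and none of the 3 passed after adjustment.

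Defining markers of neutrophils were in part present and in part below the filter on low counts. Cxcr2, the chemokine receptor of mature neutrophils, had 9.08 and 6.37 CPM under progesterone, 8.40 and 8.53 under vehicle, and 9.96 and 2.49 in transgenic tumours, lowest in the same library as the calprotectin genes. Ly6g, the usual surface marker, was between 0.248 and 0.926 CPM. Of 22 genes of neutrophil identity and granules, 20 were in the table and 15 passed the filter. The primary granule genes Mpo, Elane, Prtn3 and Ctsg, and Camp, a later granule gene, did not, and Elane had 0 counts in 5 of 6 libraries. A count of 0 allows up to 3 counts, 0.0997 to 0.154 CPM depending on the library, for counting error only. Of the 15, 10 were lowest in transgenic library 2 and 11 were at least 2 times higher in transgenic library 1 than in library 2. Retnlg, at 18.7 and 1.31 CPM in transgenic libraries 1 and 2, and G0s2, at 9.59 and 0.716, were among these 10. By direction, 7 were higher and 8 lower in progesterone than in vehicle tumours, 8 higher and 7 lower in progesterone than in transgenic, and 11 higher and 4 lower in vehicle than in transgenic, and 0 passed the test.

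Among these, the secondary granule genes Ltf (lactoferrin) and Ngp had levels below their lowest vehicle value in both progesterone libraries. Ngp had 0.116 and 0.083 CPM under progesterone, against 2.16 and 0.795 under vehicle and 2.15 and 0.126 in transgenic tumours. The progesterone values of Ltf and Ngp rest on 1 to 3 reads per library, at or under the floor of 3 counts. In transgenic library 2 both genes had 0.126 CPM, also at that floor. Other genes of these granules, Lcn2 and Mmp8, had log2 fold changes of 0.14 ± 0.96 and 0.12 ± 0.58 for progesterone against vehicle, with the groups overlapping. Mmp9, a gelatinase that neutrophils store and other cells make, had 182 and 103 CPM under progesterone, 20.1 and 97.5 under vehicle, and 39.7 and 12.9 in transgenic tumours.

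The ligands that draw and feed neutrophils were also split between the transgenic libraries. All 10 that passed the filter, of 11 listed, were at least 2 times higher in transgenic library 1 than in library 2, and 7 of the 10 were lowest in library 2. Their summed level was 247 and 111 CPM under progesterone, 492 and 174 under vehicle, and 632 and 45.8 in transgenic tumours. Cxcl1, a ligand of Cxcr2, had 113 and 36.5 CPM under progesterone, 311 and 84.0 under vehicle, and 304 and 17.3 in transgenic tumours. Csf3, the G-CSF gene, had 15.3 and 4.01 under progesterone, 31.3 and 12.1 under vehicle, and 26.6 and 1.64 in transgenic tumours. Both were also more than 2 times higher in vehicle library 1 than in vehicle library 2. By direction 3 were higher and 7 lower in progesterone than in vehicle tumours (median -0.70, with 51.1% of all genes higher). In progesterone against transgenic 0 were higher and 10 lower (median -1.03, with 51.0% of all genes higher). For all of them except Ccl4 and Il6, however, both progesterone values lay between the 2 transgenic values, above library 2 and below library 1. In vehicle against transgenic 4 were higher and 6 lower (median -0.17, with 48.5% of all genes higher). None passed the test.

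In the interleukin-1 pathway, 12 of 13 listed genes passed the filter. Il1rn, the receptor antagonist, had 38.5 and 35.8 CPM under progesterone, 18.6 and 22.04 under vehicle, and 52.8 and 35.6 in transgenic tumours. Both vehicle values were below the other 4, with a log2 fold change of 0.87 ± 0.24 for progesterone against vehicle and -1.12 ± 0.24 for vehicle against transgenic (adjusted p = 0.932 and 0.811 by edgeR). Il1a, the second agonist, had 0.541 and 0.455 CPM under progesterone, 3.64 and 0.265 under vehicle, and 10.8 and 0.843 in transgenic tumours. The list had 7 higher and 5 lower genes in progesterone than in vehicle tumours, 7 and 5 in progesterone than in transgenic, and 6 and 6 in vehicle than in transgenic, with 0 past the test. Among 8 inflammatory activation genes of macrophages, 7 passed the filter, and 2 were higher and 5 lower in progesterone than in vehicle, 0 and 7 in progesterone than in transgenic, and 3 and 4 in vehicle than in transgenic tumours, again with 0 past the test.

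Of 10 genes that encode signalling partners of Trem1 and the lectins or related receptors, 7 were higher and 3 lower in progesterone than in vehicle tumours (median 0.64), 6 higher and 4 lower in progesterone than in transgenic, and 1 higher and 9 lower in vehicle than in transgenic, with 0 past the test and 0 lowest in transgenic library 2. Tyrobp, the adaptor of Trem1, had 67.6 and 53.1 CPM under progesterone, 32.9 and 40.1 under vehicle, and 31.6 and 43.1 in transgenic tumours. Fcer1g, the adaptor of both lectins, had 43.4 and 38.0 under progesterone, 26.5 and 22.7 under vehicle, and 25.9 and 36.7 in transgenic tumours. Clec4n (Dectin-2), a gene of the same lectin cluster, had a log2 fold change of 0.96 ± 0.34 for progesterone against vehicle (adjusted p = 0.936 by edgeR). Of 8 other S100 and calprotectin receptor genes, 5 were higher and 3 lower in progesterone than in vehicle, 6 and 2 in progesterone than in transgenic, and 6 and 2 in vehicle than in transgenic, and 0 passed. Of the 4 histamine genes that passed the filter, 4 were higher in progesterone than in vehicle, 3 in progesterone than in transgenic and 3 in vehicle than in transgenic, and 0 passed the test.

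Markers of other cell types differed between the same libraries, and their part in these results was not tested. Summed over 13 genes, macrophage and monocyte markers had 1271 and 1491 CPM under progesterone, 780 and 777 under vehicle, and 566 and 1220 in transgenic tumours, with none at 0. Mrc1 and Cd163 held a large part of the second progesterone sum, at 434 and 126 CPM, against 220 and 4.29 in the first. In the transgenic pair, 9 of the 13 were at least 2 times higher in library 2, the reverse of the calprotectin genes, against 6.4% of all genes. All 13 had log2 fold changes above 0 for progesterone against vehicle (median 0.69, against 51.1% of all genes above 0). For progesterone against transgenic 11 did (51.0% of all genes) and for vehicle against transgenic 2 (48.5%), and 0 passed the test. Markers of the same cells are not separate observations. General leukocyte markers (4 genes, such as Ptprc) had 300.4 and 279 CPM under progesterone, 201 and 224 under vehicle, and 174 and 286 in transgenic tumours. Thus the summed leukocyte and macrophage markers were higher in transgenic library 2 than in library 1, while most neutrophil genes were lower there. Exceptions were the macrophage marker Cd14, at 107 CPM in library 1 and 76.0 in library 2, and the neutrophil gene Padi4, at 1.44 and 2.61. Clec4d, at 35.2 and 36.9, was nearly equal.

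Red blood cell genes, summed over 5, had 85.9 and 166 CPM under progesterone, 2488 and 299 under vehicle, and 2817 and 62.9 in transgenic tumours. All 5 were lowest in transgenic library 2. The 10 granulocyte genes summed to 354 and 229 CPM under progesterone, 302 and 309 under vehicle, and 456 and 149 in transgenic tumours. The part of blood in the granulocyte values was not tested. Keratinocyte markers, since keratinocytes can make calprotectin, summed to at most 1.85 CPM, with Krt5 and Krt14 at 0 in 5 of 6 libraries. Dendritic cell markers summed to between 5.49 and 14.4 CPM, with Siglech at 0 in both vehicle libraries.

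**Figure D4:**
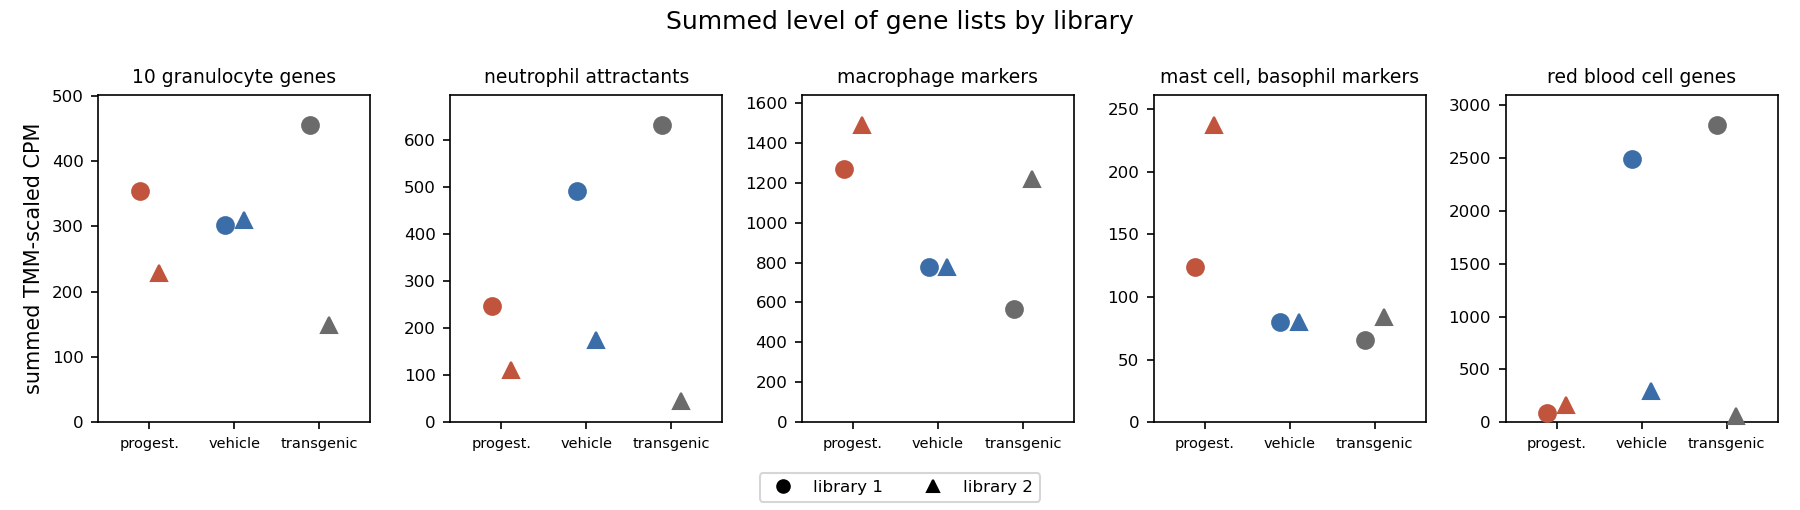
Summed TMM-scaled CPM (linear axes from 0) of the 10 granulocyte genes, of neutrophil attractants and growth factors, and of marker lists of macrophages, mast cells and basophils, and red blood cells, in each library, with circles for library 1 and triangles for library 2. Transgenic library 2 is lowest for the granulocyte genes (149 CPM) and the attractants (45.8 CPM) but above transgenic library 1 for macrophage markers (1220 against 566 CPM). Gata2 and Kit make up most of the mast cell and basophil sum in the vehicle and transgenic libraries.

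The genes outside the set whose log2 CPM followed the mean profile of the 10 most closely, of 10424 genes with at least 5 CPM, were Bola1 (r = 0.991), Rala (0.990), Slc35b1 (0.986), Rps27rt (0.986) and Fth1 (0.984), over 6 libraries. Fth1, the ferritin heavy chain, had 1890 and 1437 CPM under progesterone, 1688 and 1542 under vehicle, and 2059 and 1179 in transgenic tumours. Fth1 and Rps27rt have near-identical copies elsewhere in the genome, so their counts are uncertain. None of the 5 is a gene of neutrophil identity. From lowest to highest library they ranged only 1.43- to 1.79-fold, against 2.05- to 6.49-fold for the members. They were picked as the highest of many genes over few libraries, so their r was not tested.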

How the data were processed

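Polyadenylated tumour RNA was sequenced in 6 directional libraries, per the labels' protocols. The authors deposited raw read counts per gene. HISAT2, HTSeq, DESeq and the build GRCm38.p6 are named in the submitters' processing notes; whether counting used the strand is not given. The 6 libraries were grouped by their titles. Genes were filtered with edgeR 4.0.16 (filterByExpr), scaled by TMM and fitted with glmQLFit and glmQLFTest in R 4.3.3, with a mean for each group (3 residual degrees of freedom), and p-values were adjusted by Benjamini-Hochberg over 13632 genes. Standard errors and 95% intervals come from the F statistic. The script was tested on simulated data. CPM are TMM-scaled; RPKM divide them by the exon length in GENCODE M21 (GRCm38). Correlations use log2 CPM with a prior count of 2. Promoters are from RefSeq (GRCm38.p6), and 10 of 10 genes matched. Of the list genes, Itgam, Fpr2 and Myd88 were not analysed here. Nothing in the labels says that libraries come from separate animals, so a p-value reflects only how far these libraries spread, which may be technical. List genes were named as values by smallest unadjusted p, besides defining markers and pathway partners chosen after values were seen; similar genes by r with the mean standardised profile. The members and lists were chosen with earlier results of these data known. Alternatives were DESeq2 1.42.0, limma-voom 3.58.1, DESeq2 size factors, no filter, 2 groups only, a replicate block and leaving out each library.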

Additional observations from a re-analysis of the deposited data

How the results depend on the processing

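No member passed the test under any of the 13 alternatives run, and the counts of 0 genes by edgeR became 12 (vehicle against transgenic), 92 (progesterone against vehicle) and 28 (progesterone against transgenic) without the filter on low counts, and 63, 72 and 46 by DESeq2; the cause was not tested. Leaving out 1 library, the set's median log2 fold change ran from -0.40 to 1.15 for vehicle against transgenic, from -0.096 to 0.35 for progesterone against vehicle and from -0.67 to 1.32 for progesterone against transgenic, both ends of the first and last coming from the 2 transgenic libraries. By limma-voom the set's median was 0.33 for vehicle against transgenic (0.13 by edgeR), 0.12 for progesterone against vehicle (0.17) and 0.12 for progesterone against transgenic (-0.19). With the replicate block it was 0.34, 0.097 and -0.023 in that order, and with the progesterone numbers crossed 0.20, 0.16 and -0.037. Of 390 member values under the alternatives, 363 kept their direction and 27 did not. Leaving out 1 library, direction turned in vehicle against transgenic for S100a8 (-0.52 to 1.93), S100a9 (-0.46 to 1.91), Csf3r (-0.0069 to 1.27), Il1b (-1.03 to 1.66), Il1r2 (-0.20 to 1.02), Trem1 (-0.32 to 0.46), Clec4e (-0.83 to 0.22) and Hdc (-0.29 to 1.74). In progesterone against vehicle it turned for Csf3r (-0.076 to 0.48), Hdc (-0.12 to 0.37), Acod1 (-0.45 to 0.65) and Il1b (-1.04 to 0.12). In progesterone against transgenic it turned for S100a8 (-1.13 to 1.33), S100a9 (-0.93 to 1.44), Il1b (-1.38 to 1.32), Trem1 (-0.85 to 0.082), Clec4e (-0.63 to 0.42) and Hdc (-0.15 to 1.89). Clec4d kept its direction in all 3 comparisons under all alternatives (0.46 to 0.99 for progesterone against vehicle without 1 library), and Acod1 did in both comparisons with transgenic tumours (-1.40 to -1.16 for vehicle). By limma-voom Il1b turned to 0.28 in vehicle against transgenic, and S100a8 and S100a9 to 0.045 and 0.19 in progesterone against transgenic. The replicate numbers share no stated source, and deviations of same-numbered libraries correlated at -0.13 (progesterone and vehicle), -0.17 (progesterone and transgenic) and 0.080 (vehicle and transgenic). With the replicate block 0 genes were called in each comparison, Il1b had 0.27 in vehicle against transgenic and S100a9 0.052 in progesterone against transgenic. With the progesterone numbers crossed in the replicate block, an alternative chosen after seeing the data, 0 genes were called and S100a9 had 0.034. With 2 libraries a group, an interval that spans 0 does not show that a gene was unchanged. Clec4d and Acod1, whose intervals left out 0 in some comparisons, did not pass after adjustment either.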
